A study of Mus musculus with 18 samples.

Results

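Dividing mouse myoblasts that gave a strong signal at an unnamed marker probe were compared with dividing myoblasts that did not. The arrays were chosen by their own measured values. A marker-probe array had a log2 intensity of Ckm, the muscle creatine kinase, below 8.5 and of probe ILMN_1221149 above 13. A plain array had Ckm below 8.5, ILMN_1221149 below 5 and Usp18, an interferon-induced gene, below 6. Each rule found 3 arrays, so that 6 of the 18 arrays of the series entered the comparison and 12 were on neither side.

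The cells were cultured skeletal muscle myoblasts isolated from mice in which Gata4 is flanked by loxP sites (strain Gata4tm1.1Sad/J), and all cultures had been infected with a virus. Cells labelled OE had received a retrovirus with mouse GATA4, cells labelled KO an adenovirus with Cre recombinase, and cells labelled Wt an adenovirus with nuclear β-galactosidase, so OE and Wt differ in the kind of virus as well as in its cargo. Day 0 cultures were in growth medium with bFGF and 20% serum, and day 3 cultures had spent 3 days in differentiation medium with 5% serum. Total RNA was measured on Illumina MouseWG-6 bead arrays, in 6 labelled groups of 3 arrays.

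The labels differ within a side. The marker-probe arrays were replicates 1 and 3 of OE at day 0 with replicate 2 of OE at day 3. The plain arrays were replicates 2 and 3 of Wt at day 0 with replicate 3 of OE at day 3. Each side thus holds an array labelled day 3, and the OE label stands on both sides. The retrovirus, the adenovirus and the side cannot be told apart on the 5 arrays where label and side run together, and OE day 3 replicate 3 goes against that split. The labelled day does not follow the measured state either. Ckm was at 11.11 to 11.25 on 3 arrays labelled day 0 and at 6.89 to 7.87 on 3 labelled day 3, and whether titles and arrays were exchanged was not tested, so every statement by label carries that doubt. Nothing in the labels says whether arrays came from separate animals or cultures.

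The values that chose the sides were as follows. ILMN_1221149 had log2 intensities of 13.58, 13.79 and 13.36 on the marker-probe arrays, against 4.22, 4.28 and 4.35 on the plain arrays. Ckm had 7.48, 6.78 and 6.89 on the marker-probe arrays, and 7.39, 7.12 and 7.40 on the plain arrays. Usp18 had 4.54, 4.27 and 4.77 on the marker-probe arrays, and 5.43, 4.96 and 5.31 on the plain arrays. The other arrays fell outside these rules as follows. Of the 12 other arrays, 3 were also low in Ckm, at 7.87 to 8.05, but had Usp18 at 12.40 to 12.52, and the other 9 had Ckm at 10.87 to 11.39. Of those 9 muscle-high arrays, 3 also carried the marker probe, at 13.39 to 13.58, while every other array outside the marker-probe side was at or below 4.46.

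**Figure D1:**
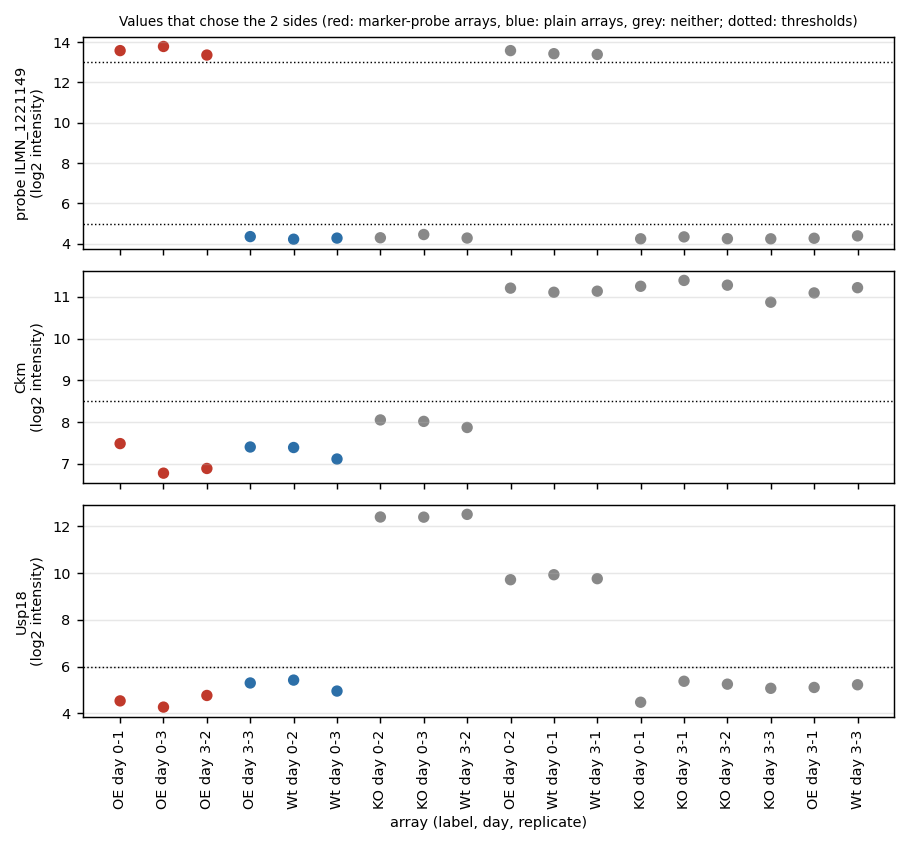
Log2 intensity (y axes) of ILMN_1221149, Ckm and Usp18 on each of the 18 arrays (x axis: label, day and replicate), with the marker-probe arrays in red, the plain arrays in blue, arrays on neither side in grey and the thresholds dotted. The nearest array outside the Ckm threshold is at 10.87, and no array lies between 4.46 and 13.36 for the marker probe.

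Dividing myoblasts are the amplifying descendants of muscle satellite cells. They express Myod1 and the cell cycle genes, and on leaving growth medium they stop dividing, fuse and switch on creatine kinase and the sarcomere genes. Car9, a membrane carbonic anhydrase, is a classical target of the hypoxia-inducible factors, which are kept low in oxygenated cells by the prolyl hydroxylases Egln1 and Egln3. Cd34 is a sialomucin on the surface of quiescent satellite cells and of many mesenchymal progenitors, and interferons act through STAT and IRF factors on a broad set of antiviral genes.

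The promoters of Car9, the first marker gene, and of Isg15, a ubiquitin-like interferon-induced protein that was among the genes most lower on the marker-probe arrays, are shown because they hold the elements for which hypoxia-induced and interferon-induced genes are known. Each is the 250 bases before the gene's start, from RefSeq (GRCm38.p6), at chr4:43506776-43507025 on the plus strand for Car9 and chr4:156200819-156201068 on the minus strand for Isg15, and written along the gene's own strand. Capitals mark the hypoxia response core ACGTG (or CACGT on the other strand) in Car9 and the interferon-stimulated response element GAAANNGAAA (or TTTCNNTTTC) in Isg15.
Car9: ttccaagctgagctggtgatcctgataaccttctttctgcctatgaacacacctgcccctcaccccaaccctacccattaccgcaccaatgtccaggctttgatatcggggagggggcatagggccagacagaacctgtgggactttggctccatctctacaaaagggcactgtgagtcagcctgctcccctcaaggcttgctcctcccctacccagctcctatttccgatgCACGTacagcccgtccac
Isg15: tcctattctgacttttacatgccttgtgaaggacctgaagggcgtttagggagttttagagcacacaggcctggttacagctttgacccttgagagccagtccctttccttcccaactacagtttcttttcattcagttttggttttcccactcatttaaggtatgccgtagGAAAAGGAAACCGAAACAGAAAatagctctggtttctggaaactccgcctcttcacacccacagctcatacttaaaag

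In Car9 the hypoxia core was found once, starting 18 bases before the gene's start. In Isg15 the interferon element was found 3 times, in overlapping matches starting 78, 72 and 66 bases before the start. Among all 32851 promoter windows of this length, 16.6% held the hypoxia core and 2.98% the interferon element. A match is a run of letters and says nothing about binding in these cells.

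Car9 had log2 intensities of 9.00, 9.02 and 8.08 on the marker-probe arrays, against 4.48, 4.28 and 4.33 on the plain arrays. It was above background on all 3 marker-probe arrays and on none of the plain arrays, and so at least 16.2-fold higher on the marker-probe arrays. For such genes the bound sets the brighter side's mean against the mean of, on each array of the dimmer side, the lowest signal of any detected probe or the gene's own signal, whichever is higher. The other 2 Car9 probes were higher by 1.72 and 2.95 (log2 differences of means). In the 3 dividing arrays with high interferon genes Car9 lay at 4.25 to 4.39, close to its level on the plain arrays.

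Cd34 had log2 intensities of 7.51, 7.47 and 7.09 on the marker-probe arrays, against 5.43, 5.51 and 5.27 on the plain arrays. The groups did not overlap, and the difference of means was 1.96 ± 0.15 (SE, n = 3 each), or 3.88-fold. Both markers were given with these arrays, so their separation of the sides is a description and no independent evidence. In bulk RNA, more cells of a type and more RNA per cell cannot be told apart.

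Gata4 itself, the gene that the viruses were meant to add or remove, was close to background on both sides. It had log2 intensities of 4.62, 4.33 and 4.40 on the marker-probe arrays and 5.06, 4.66 and 4.36 on the plain arrays, and was above background on 0 and on 1 of these arrays. The lowest value of any probe on any array was 4.13. At this signal Gata4 gives no check of the OE label, and the place of its probe on the viral transcript was not analysed here.

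The arrays of a side resembled each other more than they resembled the other side. Pearson correlations over genes were 0.989 to 0.995 within the marker-probe side, 0.987 to 0.993 within the plain side and 0.974 to 0.981 between them. Every plain pair, those with OE day 3 replicate 3 included, was thus above every pair that crossed the sides. The number of probes above background was 18366, 18790 and 16974 on the marker-probe arrays, against 17682, 18847 and 19775 on the plain arrays, among 45281 probes. The sides overlapped in this number and in the median intensity, which was 98.1, 109.0 and 98.8 on the marker-probe arrays and 99.6, 106.7 and 107.2 on the plain arrays. Slides and chip positions were not used here.

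Since the arrays were chosen by measured values, the difference between the sides is a description and carries no p-value. A gene was called where the means differed by at least 1 on the log2 scale and the values of the 2 sides did not overlap. Of 11921 genes measured, 252 were called higher on the marker-probe arrays (2.11%) and 87 were called lower (0.73%). The larger differences were mostly upward: 40 genes were higher by 2 or more and 6 were lower by 2 or more. The median difference over all genes was -0.03, and 45.7% of genes had a positive difference. The genes above background on all 6 arrays were 202 of the 252 and 68 of the 87. On no plain array were 24 of the 252 above background, and on no marker-probe array 2 of the 87. For 8 of these 24 and 1 of these 2 the bound was below 1 on the log2 scale, so the minimum difference is not secured.

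**Figure D2:**
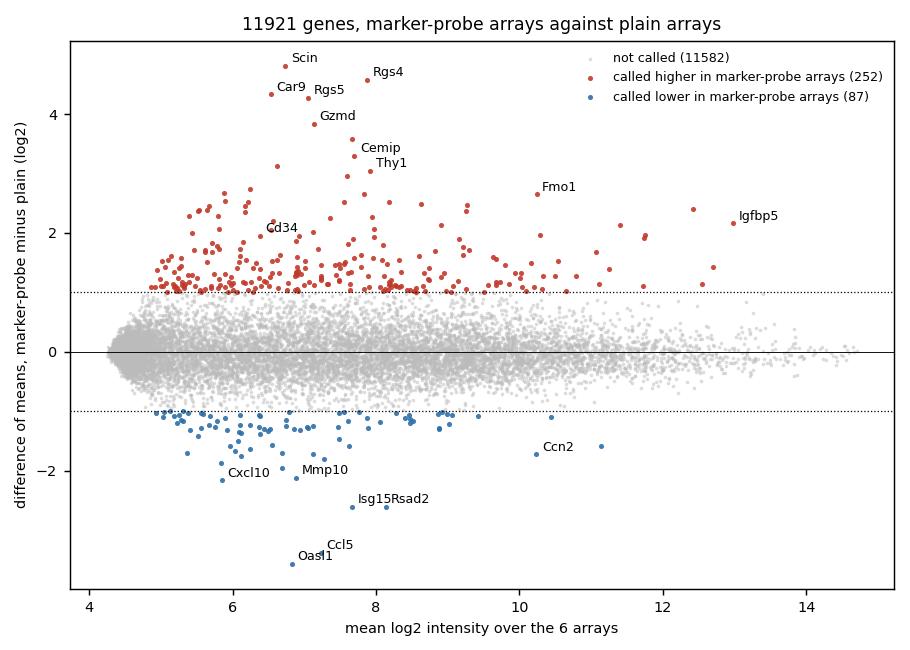
Difference of means, marker-probe minus plain arrays (y axis, log2), against the mean log2 intensity over the 6 arrays (x axis) for 11921 genes, with called genes in red (252 higher) and blue (87 lower) and dotted lines at a difference of 1. Scin, Rgs4, Car9 and Rgs5 lie above 4, and Oasl1 and Ccl5 lie below -3.

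The genes with the largest upward differences encode regulators of G protein signalling, an actin-severing protein, secreted proteases and surface proteins. Scin, the calcium-dependent actin-severing protein scinderin, had log2 intensities of 8.99, 9.16 and 9.28 on the marker-probe arrays and 4.37, 4.31 and 4.30 on the plain arrays. It was above background on none of the plain arrays and was at least 22.0-fold higher. All 3 marker-probe arrays were high and all 3 plain arrays were near the lowest value of any probe.

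Rgs4, which speeds GTP hydrolysis by G protein alpha subunits, had log2 intensities of 10.09, 10.24 and 10.18 on the marker-probe arrays, against 5.41, 5.62 and 5.73 on the plain arrays. The difference was 4.58 ± 0.10 (SE, n = 3 each), or 23.9-fold. Rgs5, a relative that is known as a marker of pericytes, had 9.12, 9.25 and 9.23 on the marker-probe arrays, against 4.69, 5.00 and 5.06 on the plain arrays, a difference of 4.28 ± 0.12. Gng13, a G protein gamma subunit, was higher by 3.12 ± 0.25. The values of these 3 genes of the G protein cycle did not overlap between the sides, by the rule for calling.

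Gzmd and Gzme, 2 granzymes of a tight family of serine proteases, were higher by 3.84 ± 0.20 and 3.58 ± 0.39. Gzmd had log2 intensities of 9.17, 9.13 and 8.84 on the marker-probe arrays and 5.37, 4.87 and 5.40 on the plain arrays. The coding sequences of these granzymes are much alike, so the probes may share transcripts and the split between the 2 genes is uncertain. Both were above background on all 3 plain arrays.

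Thy1, a glycolipid-anchored surface protein of fibroblasts, had log2 intensities of 9.35, 9.36 and 9.63 on the marker-probe arrays, against 6.44, 6.24 and 6.51 on the plain arrays, a difference of 3.05 ± 0.12. In the 3 dividing arrays with high interferon genes Thy1 lay at 8.39 to 8.43, between the sides. Cemip, which binds hyaluronan and is needed for its breakdown, was higher by 3.30 ± 0.18, although its other probe differed by 0.02. Fmo1, a flavin-containing monooxygenase, was already bright on the plain arrays and differed by 2.65 ± 0.09, with 11.56, 11.60 and 11.53 on the marker-probe arrays and 9.05, 8.93 and 8.76 on the plain arrays. In each of these genes the lowest marker-probe array stood above the highest plain array by over 1 log2 unit.

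The rest of the 15 most higher genes were Sapcd1 (2.96 ± 0.12), the blood-lineage repressor Gfi1 (2.73 ± 0.12), the mucin-type glycosyltransferase Gcnt3 (at least 5.77-fold), the membrane protease Bace2 (2.66 ± 0.21) and the axonemal dynein chain Dnali1 (2.54 ± 0.26). All 15 were above background on every marker-probe array. On the plain arrays Dnali1 was above background on 1 of 3, and Gfi1 and Rgs5 on 2 of 3. The other probe of Dnali1 differed by 0.03, and the other 3 probes of Bace2 were higher by 0.64 to 1.94. Over all 339 called genes, 146 had another measured probe, and in 18 of these at least 1 other probe had the opposite sign.

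**Figure D3:**
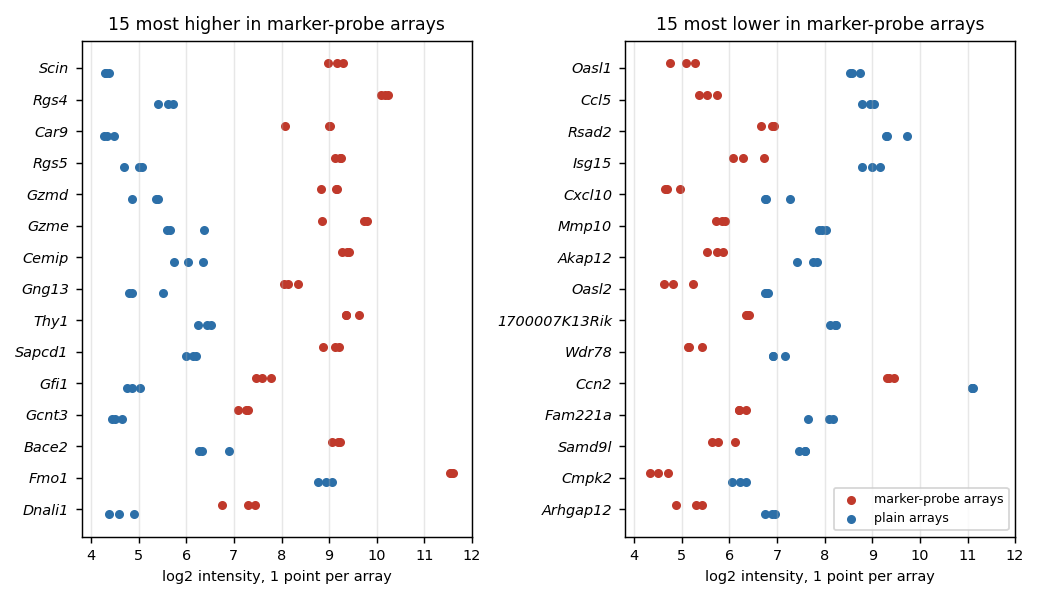
Log2 intensity (x axis) on each of the 3 marker-probe arrays (red, upper row of each gene) and the 3 plain arrays (blue, lower row) for the 15 genes most higher (left) and the 15 most lower (right) on the marker-probe arrays. Red and blue points do not overlap for any of the 30 genes, by the rule for calling.

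Among the genes lower on the marker-probe arrays, interferon-induced genes and chemokines came first. Oasl1, which is known in mice to hold back translation of Irf7, had log2 intensities of 5.09, 5.27 and 4.76 on the marker-probe arrays, against 8.52, 8.73 and 8.56 on the plain arrays. The difference was -3.57 ± 0.16 (SE, n = 3 each), and the other 2 Oasl1 probes were lower by -3.32 and -1.77. Oasl1 was above background on 2 of the 3 marker-probe arrays.

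Rsad2, the antiviral enzyme viperin, had 6.65, 6.89 and 6.94 on the marker-probe arrays, against 9.72, 9.32 and 9.29 on the plain arrays, a difference of -2.62 ± 0.16. Isg15, whose promoter is printed above, had 6.73, 6.28 and 6.08 on the marker-probe arrays, against 9.15, 9.00 and 8.78 on the plain arrays, a difference of -2.61 ± 0.22. The mitochondrial nucleotide kinase Cmpk2 was at least 2.76-fold lower, and Samd9l was lower by -1.70 ± 0.15. Oasl2 differed by -1.88 ± 0.18, while its other 2 probes differed by -0.07 and 0.01, and it was above background on 1 of the 3 marker-probe arrays.

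The chemokine Ccl5 had 5.36, 5.52 and 5.74 on the marker-probe arrays, against 8.78, 9.04 and 8.96 on the plain arrays, a difference of -3.39 ± 0.13. Cxcl10, an interferon-induced chemokine, differed by -2.16 ± 0.20 and was above background on 2 of the 3 marker-probe arrays. Neither gene overlapped between the sides, by the rule for calling.

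The other strongly lower genes were of different kinds. Ccn2, a matrix protein known as connective tissue growth factor and a target of TGF-beta and YAP, had 9.30, 9.35 and 9.46 on the marker-probe arrays, against 11.10, 11.12 and 11.09 on the plain arrays, a difference of -1.73 ± 0.05 with its other probe at -1.85. In the 3 dividing arrays with high interferon genes Ccn2 lay at 9.60 to 9.78, nearer to the marker-probe arrays than to the plain arrays. The matrix metalloproteinase Mmp10 differed by -2.12 ± 0.07 and the protein kinase A anchoring protein Akap12 by -1.96 ± 0.16. 1700007K13Rik, Wdr78 and Fam221a differed by -1.81 ± 0.04, -1.75 ± 0.13 and -1.72 ± 0.17.

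Hypoxia-induced genes were the list with the highest median. Of 34 measured genes of this list, 7 were called higher and 0 lower, 25 had a positive difference, and the median was 0.54. Over all genes, 2.11% were called higher, 45.7% had a positive difference and the median was -0.03. The mean log2 intensity of the list was 8.57, 8.60 and 8.57 on the marker-probe arrays, against 7.91, 7.91 and 7.95 on the plain arrays. Since Car9 was given with these arrays and the list was drawn up with earlier results known, its count describes the arrays and is no independent evidence.

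The members called higher belong to several branches of the response. Ndrg1, a stress-induced protein, had 8.12, 8.16 and 8.08 on the marker-probe arrays, against 5.92, 6.16 and 6.25 on the plain arrays, a difference of 2.01 ± 0.10. In the 3 dividing arrays with high interferon genes Ndrg1 lay at 7.39 to 8.03, above all plain arrays. Pdk1, the kinase that closes pyruvate dehydrogenase, had 8.42, 8.53 and 8.58 on the marker-probe arrays, against 6.66, 6.61 and 6.84 on the plain arrays. The difference was 1.81 ± 0.08, while the other Pdk1 probe differed by 0.08. The collagen cross-linking enzyme Lox differed by 1.60 ± 0.19. The last 3, named after their values were seen, were the glucose transporter Slc2a1 (1.53 ± 0.06) and the prolyl hydroxylases Egln3 (1.27 ± 0.10) and Egln1 (1.12 ± 0.09). Of the 5 of these 7 genes with a promoter window used here, 4 held the hypoxia core, namely Car9, Slc2a1, Egln1 and Egln3, and Pdk1 did not.

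Core glycolysis enzymes, many of which are also hypoxia targets, leaned the same way by less. Of 15 measured, 13 had a positive difference, against 45.7% of all genes, and the median was 0.24. Of the same 15, 0 were called, against 2.11% higher and 0.73% lower over all genes. Pfkl, the liver-type phosphofructokinase, had 10.85, 10.99 and 10.86 on the marker-probe arrays, against 10.10, 9.96 and 9.73 on the plain arrays, and stayed just under the minimum at 0.97 ± 0.12. Pgk1, phosphoglycerate kinase, differed by 0.85 ± 0.14 (its other 2 probes by 0.01 and 0.14) and Ldha, lactate dehydrogenase, by 0.46 ± 0.14. Respiratory chain and ATP synthase genes had a median of -0.15, with 0 of 31 called and 25 of 31 lower in mean. The 6 others were higher, against 45.7% of all genes.

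Of 27 measured interferon-induced genes, 0 were called higher and 7 lower, 22 had a negative difference and the median was -0.44. Usp18, which the rule used, is among the 27, at -0.70 ± 0.20 and not called. The list was drawn up with earlier results known, so its count describes the arrays and is no independent evidence. Over all genes 0.73% were called lower and 45.7% had a positive difference. The list mean was 5.61, 5.61 and 5.60 on the marker-probe arrays, against 6.40, 6.33 and 6.30 on the plain arrays, although Usp18 below 6 had been required of the plain arrays. Of the 34 genes of this list with a probe, some of them among the 27, 13 were above background on none of the 6 arrays, Ifit1, Mx1 and Irf7 included. The called members were Oasl1, Rsad2, Isg15, Oasl2 and, named after their values were seen, Ifit3 (-1.39 ± 0.16) and the guanylate-binding proteins Gbp2 (-1.12 ± 0.16) and Gbp3 (-1.08 ± 0.20). Of these 7 promoters, 5 held the interferon element, and those of Oasl1 and Oasl2 did not.

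Chemokines and NF-kB response genes did not move with Ccl5 and Cxcl10 as a group. Of 23 measured, 1 was called higher and 2 lower, against 2.11% and 0.73% of all genes. Of the same 23, 19 had a positive difference, against 45.7% of all genes, and the median was 0.24. The 1 member called higher was Il6, the pleiotropic cytokine, with 5.60, 5.76 and 6.21 on the marker-probe arrays and 4.69, 4.35 and 4.50 on the plain arrays, above background on none of the plain arrays and at least 2.26-fold higher. The acute-phase gene Saa3 differed by 0.94 ± 0.16 and was not called.

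**Figure D4:**
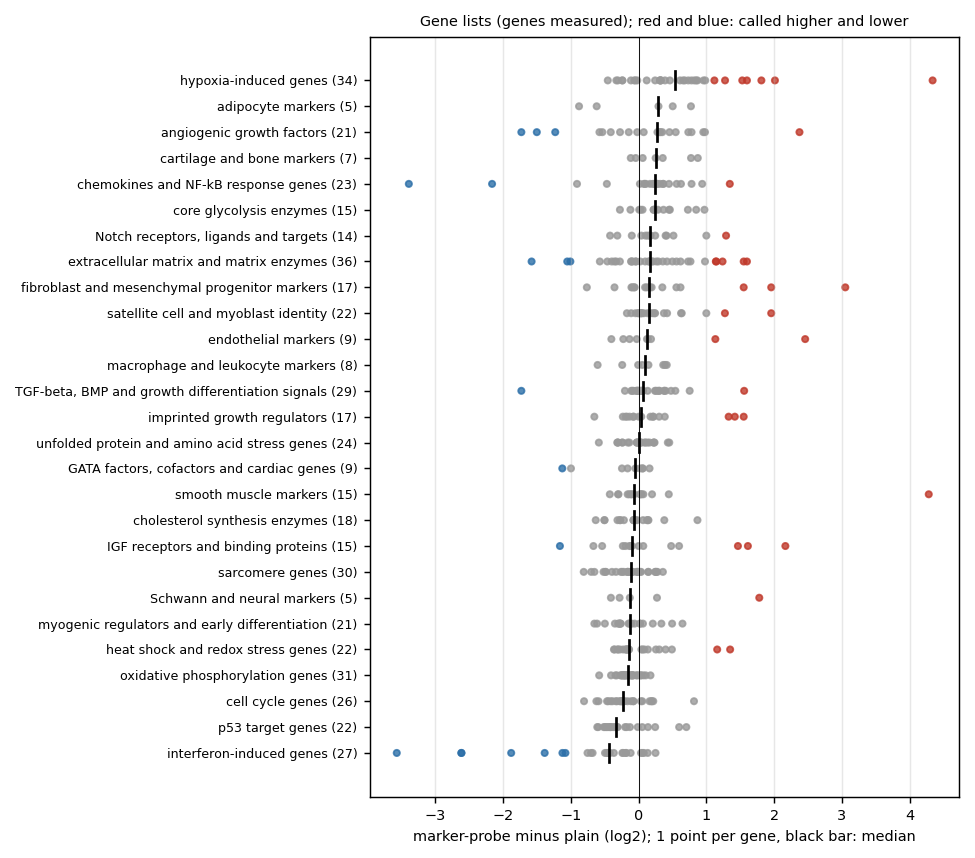
Difference of means, marker-probe minus plain arrays (x axis, log2), for each measured gene (points) of 27 lists (y axis, number of genes measured in brackets), with called genes in red and blue and the list median as a black bar. Hypoxia-induced genes have the highest median (0.54) and interferon-induced genes the lowest (-0.44), and single genes such as Rgs5 and Tek stand far from the rest of their list.

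No muscle or division gene of the lists reached the minimum difference of 1 at the probe that stood for it, although the means of these lists were slightly lower on the marker-probe arrays and did not overlap. Over all genes, 2.11% were called higher and 0.73% lower, so 0 calls in lists this short do not set them apart. Of 21 myogenic regulators and early differentiation genes, 0 were called, and the median was -0.13. Of 30 sarcomere genes, 0 were called and the median was -0.11, or 0.02 with the authors' processed values. The mean log2 intensity was 9.17 to 9.20 on the marker-probe arrays and 9.27 to 9.32 on the plain arrays for the myogenic list, and 9.81 to 9.88 on the marker-probe arrays and at least 9.97 on the plain arrays for the sarcomere list. The widest differences among them were Myh8, the perinatal myosin heavy chain, at -0.70 ± 0.13 (its other 2 probes at -0.84 and -1.18) and Myh1, a fast adult chain, at -0.81 ± 0.33, and the values of Myh1 overlapped. Both the myogenic and the sarcomere list stood higher on the 9 muscle-high arrays, at 10.56 to 10.80 and 11.56 to 11.81. Ckm had chosen both sides to be low, so this lower level on the 2 sides is not a finding. Muscle genes were not absent from either side. Myl1 had means of 14.31 on the marker-probe arrays and 14.53 on the plain arrays, and Acta1 had 13.65 and 13.82. Myh4, Neb and Mybpc2 were above background on none of the 6 arrays.

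Of 26 cell cycle genes, 0 were called, against 2.11% higher and 0.73% lower over all genes, and the median was -0.23. Of them, 7 had a positive difference, against 45.7% of all genes, and 19 a negative one. Their mean log2 intensity was 9.61 to 9.69 on the marker-probe arrays and 9.79 to 9.88 on the plain arrays, against 7.46 to 7.85 over the 9 muscle-high arrays, so that both sides stood well above the muscle-high arrays. Mcm5, a subunit of the replicative helicase, had 10.07, 10.08 and 9.78 on the marker-probe arrays and 10.95, 10.87 and 10.53 on the plain arrays, a difference of -0.81 ± 0.16. Ccnd2, cyclin D2, went the other way at 0.82 ± 0.30, with its other 2 probes at 0.06 and 0.77. Of 22 p53 targets, 0 were called and the median was -0.33, with the cell cycle inhibitor Cdkn1a at -0.50 ± 0.09.

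Of 22 satellite cell and myoblast identity genes, 2 were called higher, Cd34 and the tetraspanin Cd82, and 0 lower, against 2.11% and 0.73% of all genes. Cd34 was given with these arrays, so its call adds no independent evidence to this count. Cd82 had 11.00, 10.96 and 10.94 on the marker-probe arrays, against 9.74, 9.66 and 9.68 on the plain arrays, a difference of 1.27 ± 0.03. Notch3, a receptor of satellite cells, lay just under the minimum at 1.00 ± 0.14. Among 14 Notch pathway genes the 1 called was Dtx4, a deltex ubiquitin ligase, at 1.29 ± 0.09, against 2.11% of all genes called higher.

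Among the insulin-like growth factor (IGF) receptors and binding proteins, 3 binding proteins were called higher and 1 gene lower. Over all genes, 2.11% were called higher and 0.73% lower. Igfbp5, which binds IGFs and is made by differentiating myoblasts, had 14.02, 14.00 and 14.18 on the marker-probe arrays, against 11.80, 11.73 and 12.19 on the plain arrays. The difference was 2.17 ± 0.15, with its other 2 probes at 2.26 and 2.68. Igfbp2 differed by 1.61 ± 0.09 and Igfbp3 by 1.47 ± 0.39, while the RNA-binding protein Igf2bp1 was lower by -1.16 ± 0.17. The list held 15 measured genes, with a median of -0.10 that was 0.01 with the authors' processed values.

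Of 17 imprinted growth regulators, 3 were called higher and 0 lower, against 2.11% and 0.73% of all genes. They were the matrix proteoglycan Dcn (1.55 ± 0.11), Nnat, a small membrane protein (1.42 ± 0.09, its other 2 probes at 0.21 and 0.40), and Mest, a hydrolase-fold protein (1.33 ± 0.40). Mest had 10.80, 10.88 and 10.36 on the marker-probe arrays, against 8.71, 9.38 and 9.98 on the plain arrays, and its sides were separated by less than the range within the plain side. In the 3 dividing arrays with high interferon genes Mest lay at 9.34 to 10.50, which overlapped both sides. The list median was 0.04, and -0.02 without OE day 0 replicate 3.

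Extracellular matrix genes went both ways. Of 36 measured, 5 were called higher and 3 lower, against 2.11% and 0.73% of all genes, with a median of 0.17. The proteoglycan Bgn had 10.65, 10.71 and 10.50 on the marker-probe arrays, against 9.47, 9.34 and 9.34 on the plain arrays, and Lox and Dcn were higher with it. The basement membrane collagen Col4a5 had 5.36, 4.85 and 5.32 on the marker-probe arrays, against 6.67, 6.38 and 7.22 on the plain arrays, a difference of -1.58 ± 0.29. In the 3 dividing arrays with high interferon genes Col4a5 lay at 4.96 to 5.43, close to the marker-probe arrays. Of 29 genes of TGF-beta, BMP and growth differentiation signals, the receptor Tgfbr1 was called higher (1.56 ± 0.14) and Ccn2 lower. Over all genes these shares were again 2.11% and 0.73%.

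Angiogenic growth factors and their receptors were also split. Angptl4, a secreted inhibitor of lipoprotein lipase that responds to fasting and hypoxia, had 10.46, 10.50 and 10.35 on the marker-probe arrays, against 8.12, 8.20 and 7.88 on the plain arrays, a difference of 2.37 ± 0.11, but its other probe differed by -0.37. Tek, the receptor of the angiopoietins, counted here with the endothelial markers, had 7.31, 7.40 and 7.49 on the marker-probe arrays, against 5.32, 4.81 and 4.69 on the plain arrays, a difference of 2.46 ± 0.20. Its ligand Angpt2 was lower, at -1.23 ± 0.11, as was the heparin-binding factor Ptn, at -1.50 ± 0.10. Of 21 genes of the list, 1 was called higher and 3 lower, against 2.11% and 0.73% of all genes.

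Among the GATA factors, cofactors and cardiac genes, 1 of 9 was called lower and 0 higher, against 0.73% and 2.11% of all genes. Zfpm2, the GATA cofactor FOG2, had 7.63, 7.74 and 8.38 on the marker-probe arrays, against 9.09, 8.84 and 9.21 on the plain arrays, a difference of -1.13 ± 0.26, but its other probe differed by 0.00. Gata3 had 5.98, 6.38 and 6.66 on the marker-probe arrays and 7.28, 7.34 and 7.40 on the plain arrays, and its difference lay just short of the minimum, while Gata2 overlapped between the sides at -0.16 ± 0.22. Of the 17 genes of this list with a probe, 9 were above background on none of the 6 arrays, Nkx2-5 and Tbx5 included.

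Markers of other cell types were looked at beside these differences. Of 17 fibroblast and mesenchymal progenitor markers, 3 were called higher, Thy1, Cd34 and Dcn, and 0 lower, against 2.11% and 0.73% of all genes. Here too Cd34 was given with the arrays and is no independent evidence. The median was 0.16, and Pdgfra, the receptor that defines these progenitors, lay lower at -0.76 ± 0.21. Pdgfrb, Lum, Dpt, Dpp4 and Fap were above background on none of the 6 arrays. The summed linear level of the list, in normalised intensity units, was 5519 to 6112 on the marker-probe arrays and 3969 to 4667 on the plain arrays. Thy1 differed most within the list, with means of 9.45 on the marker-probe arrays and 6.40 on the plain arrays. Of the 17 measured members, 11 had a positive difference and 6 a negative one. The part of such cells in the differences was not tested.

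Of 9 measured endothelial markers, Tek and Egfl7 were called higher, against 2.11% of all genes. The other 2 probes of Egfl7 differed by -0.39 and 1.00. Pecam1 had 4.47, 4.67 and 4.29 on the marker-probe arrays and 5.06, 4.43 and 4.61 on the plain arrays, above background on 0 and on 1. Tie1, Emcn, Cldn5, Sox18 and Erg were above background on none. The summed level was 694.5 to 785.3 on the marker-probe arrays and 406.5 to 519.7 on the plain arrays. Egfl7 and Tek were its brightest measured members, with means of 8.20 and 7.40 on the marker-probe arrays and 7.07 and 4.94 on the plain arrays. The other measured members had means of 4.30 to 4.79 on the marker-probe arrays and differed by -0.40 to 0.18. Of 15 smooth muscle markers, Rgs5 was called higher, against 2.11% of all genes, at a list median of -0.07. Cnn1, Myh11, Lmod1 and Synpo2 were above background on none. The summed level of that list overlapped between the sides, at 15676 to 17328 on the marker-probe arrays and 15117 to 16875 on the plain arrays.

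Of 8 measured macrophage and leukocyte markers, 0 were called, and Ptprc, Adgre1, Itgam, C1qa, C1qb and C1qc were above background on none of the 6 arrays. Their summed level was 9955 to 10886 on the marker-probe arrays and 7574 to 8241 on the plain arrays, most of it from Lgals3, which had a mean difference of 0.41 ± 0.06. Of 5 Schwann and neural markers, Mbp was called higher (1.78 ± 0.12, its other 2 probes at 0.05 and 0.66), against 2.11% of all genes. Sox10, S100b and Gfap were above background on none. The 5 adipocyte markers and 7 cartilage and bone markers had 0 called, with medians of 0.29 (-0.06 under a stricter detection filter) and 0.25. The 0 calls in these lists and among the macrophage markers stand against 2.11% higher and 0.73% lower over all genes.

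Of 22 heat shock and redox stress genes, 2 were called higher, the glutathione transferase Gsta4 (1.35 ± 0.10) and the metallothionein Mt2 (1.16 ± 0.14), and 0 lower. Over all genes, 2.11% were called higher and 0.73% lower. None of 24 unfolded protein and amino acid stress genes was called, and their median was 0.01. Of 18 cholesterol synthesis enzymes 0 were called, with a median of -0.07.

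Of 3334 probes without a gene name, 39 were called higher and 11 lower, against 2.11% and 0.73% of all genes. ILMN_1221149 chose the sides, so its difference was fixed by the rule. ILMN_1245887 had 13.54, 13.69 and 13.28 on the marker-probe arrays, against 4.46, 4.31 and 4.36 on the plain arrays, and was at least 452-fold higher. ILMN_2473811, which was above background on 1 of the 3 plain arrays, had a mean of 13.62 on the marker-probe arrays and 4.61 on the plain arrays, and ILMN_2420341 was at least 42.3-fold higher. These 4 probes were high on the same 6 arrays, the 3 marker-probe arrays and the 3 muscle-high arrays with the marker probe, which are replicate 1 of Wt at either day and replicate 2 of OE at day 0. They were not independent of the marker probe, and the transcript they measure is not named in the sources used here. ILMN_2452484 went the other way, with 6.69, 6.67 and 6.96 on the marker-probe arrays and 9.62, 9.40 and 9.86 on the plain arrays.

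The muscle-high arrays allow the same measures to be read on arrays that the rule did not use. Among arrays with Ckm above 10, the 3 that carried the marker probe were set against the 6 that did not (all 3 KO arrays of day 3, replicate 1 of KO at day 0, replicate 1 of OE and replicate 3 of Wt at day 3). This comparison was added after the values were seen, is again a split by measured values across labels, and carries no p-value. In it 227 genes were called higher with the marker probe (1.9%) and 272 lower (2.28%).

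Of the 252 genes called higher in dividing cells, 75 were also called higher in the muscle-high arrays, which is 29.8% of the 252 and 33.0% of the 227. Of the 87 called lower, 32 were also called lower, which is 36.8% of the 87 and 11.8% of the 272. Scin was higher in both, by 4.97 in the muscle-high arrays, as were Cd34 (2.80), Tek (2.45), Dnali1 (2.65), Gcnt3 (2.56) and Angptl4 (1.85). Scin had a log2 intensity of 9.91 to 10.02 on the 3 muscle-high arrays with the marker probe. Mmp10 (-1.40), Akap12 (-1.10) and 1700007K13Rik (-2.05) were lower in both.

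Other genes called higher in dividing cells were not called in the muscle-high arrays. Rgs4 went the other way there, at 7.64 to 7.95 with the marker probe and 8.53 to 8.88 without it, a difference of -0.91 with no overlap that missed the minimum. Pdk1 was also lower without overlap, by -0.40, while the values of Thy1 (-0.69) and Gzmd (0.05) overlapped. Car9 was higher by 1.33 but its values overlapped. The hypoxia list had a median of -0.04 in the muscle-high arrays, against 0.54 in the dividing arrays. Its mean log2 intensity was 8.53 to 8.63 on the muscle-high arrays with the marker probe and 8.49 to 8.94 on those without it. The dividing marker-probe arrays, at 8.57 to 8.60, were thus no higher than muscle-high arrays without the probe. The 3 dividing arrays with high interferon genes were at 8.03 to 8.09, and the plain arrays at 7.91 to 7.95.

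Interferon-induced genes lay in the opposite direction in the muscle-high arrays. Isg15 was lower in dividing marker-probe arrays by -2.61 and higher in muscle-high arrays with the marker probe by 4.12. On the 3 muscle-high arrays with the marker probe Isg15 lay at 10.71 to 11.14. The list median was 1.16 in the muscle-high arrays, against -0.44 in the dividing arrays. In all, 10 genes called lower in dividing cells were called higher in the muscle-high arrays, and 8 called higher were called lower. Whether the differences themselves differed was not tested.

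**Figure D5:**
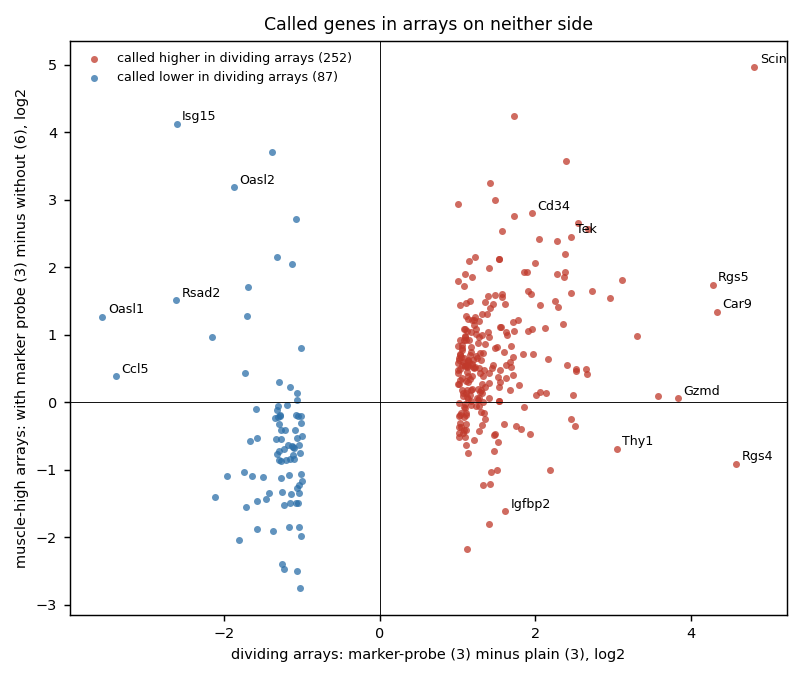
Difference of means in muscle-high arrays, 3 with minus 6 without the marker probe (y axis, log2), against the difference in dividing arrays, 3 marker-probe minus 3 plain (x axis, log2), for the 339 called genes. Scin, Cd34 and Tek are high on both axes, Rgs4 and Thy1 lie below 0 on the y axis, and Isg15, Rsad2 and Oasl1 are low on the x axis and above 1 on the y axis.

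The sides follow the OE label on all arrays but one, so the OE and Wt labels were compared on the 12 arrays that the rule did not use. The fit held 2 OE, 4 Wt and 6 KO arrays with the labelled day as a further term. With limma and Benjamini-Hochberg adjustment over 11921 genes, 0 genes passed an adjusted p of 0.05, the smallest adjusted p was 0.984, and 144 genes had an unadjusted p below 0.05. Of the 339 genes called between the sides, 3 had an unadjusted p below 0.05. This tests the label and not the sides, since the marker probe was high on 1 of those 2 OE arrays and on 2 of those 4 Wt arrays. The labels also mix muscle-high with dividing interferon-high arrays, and the standard error was 1.19 for Ckm and 2.34 for Usp18, so the count of 0 says little about the genes that part the sides.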

How the data were processed

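Per the file headers, the authors deposited mean bead intensity values on a linear scale without normalisation and a detection p-value for 45281 probes on each of 18 arrays. A further table of processed intensity values, also deposited by the authors, had column medians of 105.1 to 110.7. How it was normalised, the scanner software and the slides are not given in the sources used here. That table served as an alternative only.

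Arrays were background-corrected and quantile normalised together with neqc in limma 3.58.1 (R 4.3.3), with background parameters from the detection p-values and an offset of 16. The filter kept 22365 probes whose detection p-value was under 0.05 on 3 or more arrays. Of all probes, 34885 had 1 symbol in the platform annotation, 18 several and 10378 none. Symbols were updated through Entrez identifiers (34807 matched) to GRCm38.p6. The probe with the highest mean stood for each of 11921 genes. Differences are means on the log2 scale with standard errors from the variances within sides. The number of arrays limits the precision.

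Genes named are the markers, the genes used by the rule, Gata4, the 15 most higher and most lower called genes, up to 4 members with the widest difference in each of 27 lists, and up to 5 unnamed probes. Other names are said to have been added after values were seen. The members and lists were chosen with earlier results of these data known. Labels were tested with limma's moderated statistics. Where the labels do not tie replicates to cultures or animals, p-values measure the spread between these arrays, which may be technical. Alternatives covered background correction, normalisation, the processed values, detection filters, probe choice, thresholds, array weights, a replicate block and leaving out arrays. Replicate numbers did not pair the arrays.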

Additional observations from a re-analysis of the deposited data

Results flagged for a closer look

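Of the named genes, 9 were called in opposite directions with the marker probe in dividing and in muscle-high arrays. Each differed by at least 1 on the log2 scale in both states, with no overlap of arrays. The difference between the states was not tested. The 6 that were lower on the dividing marker-probe arrays were higher on the muscle-high arrays with the marker probe, by a log2 of 4.12 for Isg15, 3.18 for Oasl2, 1.71 for Cmpk2, 1.51 for Rsad2, 1.27 for Samd9l and 1.27 for Oasl1. The 3 that were higher on the dividing marker-probe arrays were lower on the muscle-high arrays with it, by -1.62 for Igfbp2, -1.24 for Mest and -1.21 for Nnat. In the muscle-high arrays Usp18, which had been required to be low only of the plain dividing arrays, was higher by 4.72 with the marker probe.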

How the results depend on the processing

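The counts of 252 higher and 87 lower genes depended on the background correction and on the minimum difference. They were 91 and 15 without background correction, 95 and 10 with the authors' processed values, 728 and 507 with a minimum of 1.5-fold, and 40 and 6 with a minimum log2 difference of 2. Of the 95 and 10, 92 and 10 were among the 252 and 87. Under the other corrections, normalisations, filters and probe choices there were 200 to 268 higher and 61 to 89 lower, and with each array left out 246 to 264 higher and 87 to 96 lower. The median of the hypoxia list was 0.467 with normexp by signal, 0.282 without background correction, 0.603 with cyclic loess, 0.597 with median scaling, 0.35 with the authors' values, 0.61 with a stricter filter, 0.421 with the mean over probes and 0.507 to 0.606 with each array left out. That of the interferon list was -0.379 with normexp by signal, -0.188 without background correction, -0.16 with the authors' values, -0.365 with the mean over probes and -0.51 to -0.379 with each array left out. Of 1843 values of named genes under alternatives, 0 changed sign where called and 229 moved by more than the spread, 160 of them without background correction or with the authors' values. Why these values moved was not tested. Of 405 list medians under alternatives, 14 had the other sign or were 0, all in lists with a main median of 0.293 or less in size. For the OE and Wt labels 0 genes passed under every alternative run. With the replicate block, which the residuals did not call for (correlations of same-numbered arrays -0.683 to 0.85, n = 19 pairs), 0 genes passed and 137 had an unadjusted p below 0.05.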
